A study of Mus musculus with 4 samples.

Results

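The genes described here are 10 enzymes of oxysterol and bile acid synthesis: Cyp7a1, Cyp7b1, Cyp8b1, Cyp27a1, Cyp39a1, Ch25h, Hsd3b7, Akr1d1, Baat and Slc27a5. They were chosen by name, and every non-control probe carrying one of these names on the array was taken. This gave 11 probes of the 55681 on the array, which carry 34844 gene names. Slc27a5 had 2 probes and each other enzyme had 1. The samples were primary hepatocytes of mice whose strain the labels give as bl6, measured on 4 one-colour Agilent arrays. A pair of arrays held RNA of cells given GW3965 at 1 µM, a compound that activates LXR, the sterol-sensing liver X receptors, and the other pair held RNA of cells given DMSO, the vehicle. All cells, vehicle controls included, spent the same night in low serum (0.5% FBS) with simvastatin, which inhibits the enzyme that makes mevalonate for sterol synthesis, at 5 µM and with mevalonic acid itself at 100 µM. Nothing in the labels says that replicates a and b of a group came from separate animals or cultures, so a p-value here reflects the spread among these arrays alone, and that spread may be technical.

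Bile acids are made from cholesterol in hepatocytes by 2 routes. The classic route starts with Cyp7a1 on the sterol ring, and the alternative route starts with hydroxylation of the side chain, which yields oxysterols that Cyp7b1 or Cyp39a1 then hydroxylate on the ring. Both routes share Hsd3b7, Cyp8b1 and Akr1d1 for changes to the ring, Cyp27a1 for the side chain, and Slc27a5 and Baat for joining the finished bile acid to taurine or glycine. Oxysterols are also natural ligands of LXR, and in rodents Cyp7a1 is a textbook LXR target.

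A signal on these arrays belongs to one stretch of 60 bases, so the start of each probe is shown to define what was measured. Each line gives the first 30 bases, 5′ to 3′, as the scanner files list them.
Cyp7a1: ttgtttttaaaacaagttttatgactccct
Cyp27a1: tcagatctgttgcaatcatgttccagaact
Ch25h: tgcgtgaactccagagagcgatgcgctgta
Cyp7b1: ttggttgagatcaatccagttggttttggg
Cyp39a1: ggggaacggaaactggggtgggaatgtatt
Hsd3b7: ttagcttcctcccctaggatgccaacctgt
Cyp8b1: aaacctggaaaaagacggcataagctgttg
Akr1d1: ggcaagaaacaagatatacaaatcaagctt
Slc27a5, probe 1: aacacctacaagctggtaaagtcacgactg
Slc27a5, probe 2: tgtccgggttccagatgcccatggcccagt
Baat: ttttgtggttggagaagatgataaaaatct
In mm9 coordinates as the files give them, the probes lie at chr4:6193456-6193515 (Cyp7a1, minus strand), chr1:74782203-74782262 (Cyp27a1, plus), chr19:34548720-34548779 (Ch25h, minus), chr3:17972286-17972345 (Cyp7b1, minus), chr17:43887735-43887794 (Cyp39a1, plus), chr7:134947251-134947310 (Hsd3b7, plus), chr9:121824595-121824654 (Cyp8b1, minus), chr6:37518113-37518172 (Akr1d1, plus) and chr4:49502933-49502992 (Baat, minus). The 2 Slc27a5 probes lie close together on the minus strand, at chr7:13573924-13573983 (probe 1) and chr7:13573701-13573760 (probe 2). An mm9 gene annotation was not used here, so the exon or UTR each probe falls in is not given.

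None of the enzymes passed the test for a difference between GW3965 and DMSO cells. Of the 11 probes, 8 from 7 genes were called well above background by the scanner software on each array of one group or the other, and were tested: those of Cyp27a1, Ch25h, Cyp7b1, Cyp39a1, Hsd3b7 and Baat, and both of Slc27a5. The other 3, those of Cyp7a1, Cyp8b1 and Akr1d1, were not measured. Each tested probe had GW3965 and DMSO values that overlapped, and every one had an adjusted p of 1.00 (limma, Benjamini-Hochberg over 35478 probes). For the 7 probes well above background on every array, the log2 differences, GW3965 minus DMSO, ran from -0.29 for Cyp39a1 to 0.20 for Ch25h. Their median was -0.08, against -0.005 over all probes well above background on every array. Baat cleared background on a single GW3965 array and was tested only through the DMSO arrays, a filter that favours a lower GW3965 value. With Baat, the 8 differences were positive for 3 probes and negative for 5, with a median of -0.12. Their standard errors had a median of 0.29 with 2 arrays in each group, and every 95% interval covered 0. In these bulk samples, fewer cells of a type and less RNA per cell cannot be told apart.

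The array-wide background of calls is needed to read that count. Across the 35478 tested probes, in the limma fit of treatment alone, 0 passed the adjusted threshold of 0.05, which is 0% of them, and 365, or 1.03%, had an unadjusted p under 0.05. The GW3965 arrays both exceeded each DMSO array for 3576 probes, or 10.1%, and both fell short of each for 2320, or 6.54%. Among the 8 enzyme probes each of these counts was 0. The fit of treatment alone leaves the gap between replicates a and b in its error. With the replicate letter added, 16 of all tested probes passed and 1956 had an unadjusted p under 0.05 (limma). Among the enzymes these counts were 0 and 1 (Baat). The labels do not say that the letters pair samples. With 2 arrays against 2, the exact permutation test of a single probe cannot go below p = 0.333.

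The arrays differed in brightness but all were usable. Between 62.5% and 69.1% of probes were well above background on each, no spot was saturated, and the number of arrays limits the precision. The receptor's best-known targets give a check of the treatment. The cholesterol exporter Abca1 read 3.31 and 3.85 on the GW3965 arrays, against 1.46 and 0.55 on the DMSO arrays, in log2 units relative to each array's 75th percentile. That is a log2 difference of 2.58 ± 0.39 (SE), or 5.96-fold. Abcg1, Srebf1 and Lpcat3 had differences of 1.98 ± 0.29, 1.24 ± 0.20 and 1.05 ± 0.21 (SE), and for all 4 genes the lower GW3965 value exceeded the higher DMSO value. None of the 4 passed after adjustment over all probes (limma adjusted p = 1.00).

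The alternative route opens with Cyp27a1, the mitochondrial sterol hydroxylase that oxidises the side chain. It read 0.49 and 0.29 in GW3965 cells, against 0.54 and 0.12 in DMSO cells. The 2 groups overlapped, and the difference was 0.06 ± 0.24 (SE), with a 95% interval of -0.56 to 0.68. On a linear scale this was 1.04-fold, with an interval from 0.679-fold to 1.61-fold.

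The Cyp27a1 probe was printed 10 times on each array, which separates the error of a spot from the spread between arrays. After outlier spots were dropped, 10 and 9 spots remained on the GW3965 arrays and 9 on each DMSO array. Among spots of one array the signal varied by at most 4.78% (coefficient of variation) in GW3965 cells and at most 3.34% in DMSO cells. On the log2 scale the SD between spots was 0.04 to 0.07, while the SD between arrays was 0.14 in GW3965 cells and 0.30 in DMSO cells. In each group the arrays thus differed by more than the spots of one array did.

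**Figure D1:**
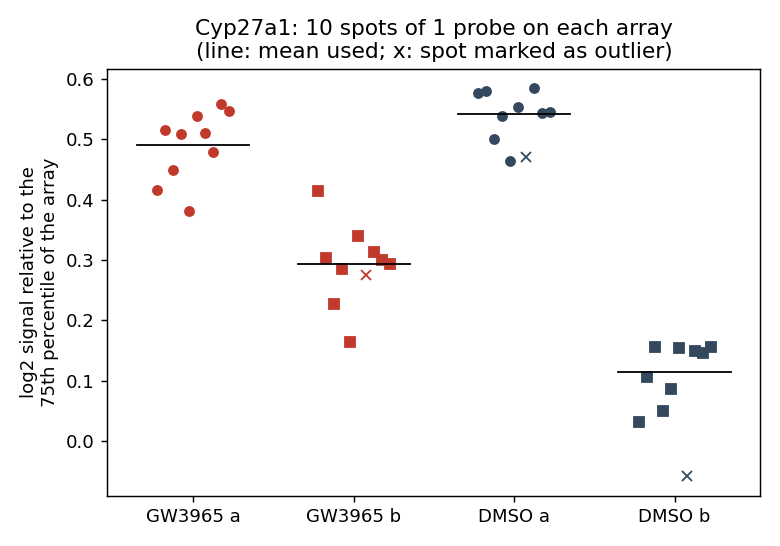
Log2 signal of each replicate spot of the Cyp27a1 probe on the 4 arrays, relative to the array's 75th percentile, with GW3965 arrays to the left of DMSO arrays. Spots of 1 array lie close together (SD 0.04 to 0.07), and the gap between DMSO replicates a and b, at 0.54 and 0.12, is wider than the difference between the groups.

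Ch25h, the hydroxylase that makes an oxysterol ligand of LXR and is known in macrophages as an interferon-responsive gene, read 0.56 and 0.15 in GW3965 cells. In DMSO cells it read 0.50 and -0.19. The highest value was a GW3965 array and the lowest a DMSO array, but the groups overlapped. The difference was 0.20 ± 0.32 (SE), the most positive among the enzymes, with an interval of -0.62 to 1.03. Because Ch25h is also a gene of activated macrophages, interferon and inflammatory genes were read beside it. Their 20 probes had a median difference of 0.05, with 11 positive and 9 negative and 0 passing the test. The 11 positive probes were those of Ifit1, Ifit2, Ifit3, Mx1, Mx2, Rsad2, Oasl1, Isg15 and Irf7 and 1 of the 2 Cxcl10 probes, genes induced by interferon, and the 9 negative ones included Il1b, Tnf, Il6, Ccl2 and Cxcl1, which encode inflammatory cytokines and chemokines. The antiviral gene Rsad2 was the 1 probe of these 20 without overlap, against 10.1% above and 6.54% below DMSO over all tested probes. It read 2.72 and 2.63 in GW3965 cells and 2.54 and 1.73 in DMSO cells, a difference of 0.54 ± 0.32 (SE). Their summed signal, in multiples of each array's 75th percentile, was 615 and 297 in GW3965 cells and 690 and 284 in DMSO cells. Ch25h and this sum were both higher on replicate a than on replicate b of each group, and whether cells that express those genes contributed to the Ch25h signal was not tested.

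Oxysterols are hydroxylated on the ring by Cyp7b1 and Cyp39a1. Cyp7b1, the main oxysterol hydroxylase of the alternative route, read 2.84 and 2.33 in GW3965 cells, against 2.85 and 2.67 in DMSO cells. GW3965 replicate a sat with the DMSO arrays and replicate b lay below them, giving a difference of -0.17 ± 0.25 (SE; interval -0.83 to 0.49). Cyp39a1, which acts mainly on the oxysterol known from brain, read -0.70 and -0.31 in GW3965 cells and -0.56 and 0.14 in DMSO cells. Its groups overlapped too, with a difference of -0.29 ± 0.32 (SE; interval -1.12 to 0.53). On a linear scale the 2 hydroxylases stood at 0.888-fold and 0.816-fold of DMSO cells, and neither interval excluded 1.

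Hsd3b7, the dehydrogenase that acts on the sterol ring in both routes, read 4.58 and 4.10 in GW3965 cells. In DMSO cells it read 4.79 and 4.06. The DMSO values enclosed the GW3965 values, and the difference was -0.08 ± 0.34 (SE; interval -0.96 to 0.79). The next 2 ring enzymes could not be measured. Cyp8b1, the sterol hydroxylase that sets the share of cholic acid, had processed signals of 12.9 and 6.53 in GW3965 cells and of 9.86 and 5.70 in DMSO cells. It was well above background on GW3965 replicate a alone. Akr1d1, the reductase of the ring's double bond, had signals of 9.91 and 9.15 in GW3965 cells and 13.6 and 12.2 in DMSO cells, none well above background.

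The Cyp7a1 probe, for the rate-limiting enzyme of the classic route, was not well above background on any array. Its processed signals were 2.51 and 5.71 in GW3965 cells and 2.79 and 5.14 in DMSO cells, with scanner errors of 2.52 and 2.66 in GW3965 cells and 2.80 and 2.99 in DMSO cells. Each signal was thus between about 1 and a little over 2 scanner errors. Even the dimmest probes that the software called well above background had signals of 10.2 and 10.6 on the GW3965 arrays. No fold is given for Cyp7a1, Cyp8b1 or Akr1d1, and these arrays do not show whether GW3965 changed them.

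**Figure D2:**
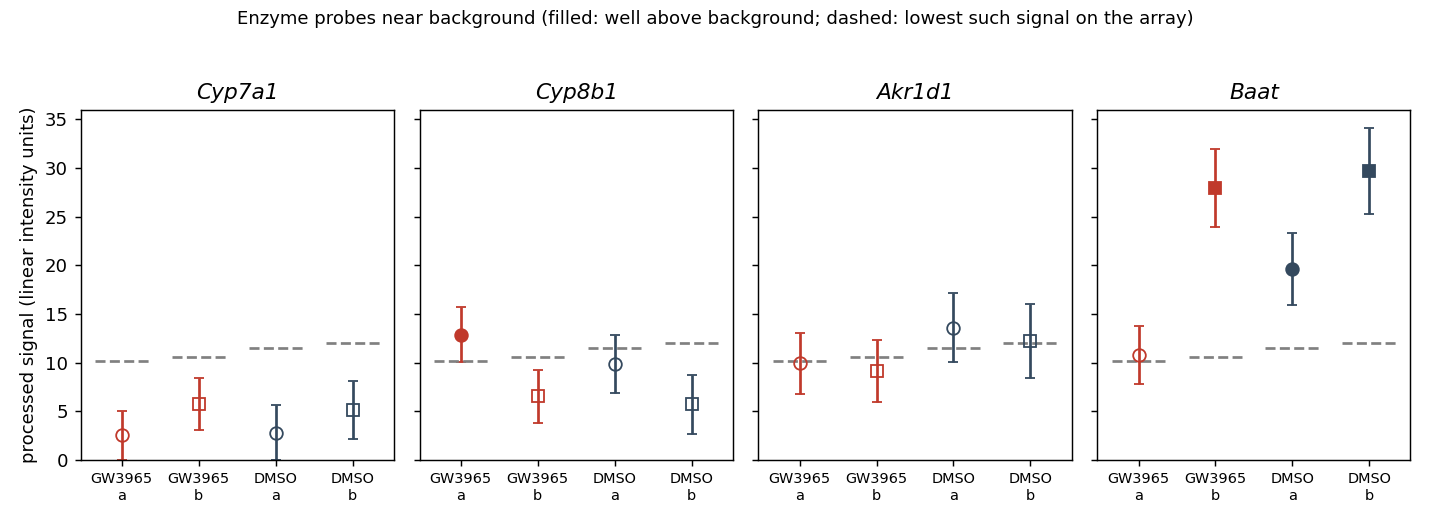
Processed signal, with the scanner's error as bars, of the Cyp7a1, Cyp8b1, Akr1d1 and Baat probes on each array, GW3965 arrays left of DMSO arrays; filled points are well above background and dashed lines mark the lowest such signal on each array. The Cyp7a1 signals, 2.51 to 5.71, lie below those lines, Cyp8b1 has 1 filled point and Akr1d1 has none.

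The last steps belong to Slc27a5, the bile acid CoA ligase, and Baat, the amino acid transferase. Slc27a5 probe 1 read 5.24 and 4.96 in GW3965 cells, against 5.15 and 5.01 in DMSO cells. Probe 2 read 6.02 and 5.65 in GW3965 cells, against 6.04 and 5.93 in DMSO cells. The groups overlapped on each probe, and the probes gave differences of opposite sign, 0.02 ± 0.21 and -0.15 ± 0.22 (SE). For probe 1 the sign turned negative when arrays were centred on their median (-0.03). The mean of the 2 probes gave a difference of -0.06. The intervals, 0.693-fold to 1.49-fold for probe 1 and 0.605-fold to 1.35-fold for probe 2, were the narrowest among the enzymes.

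Baat, the one tested enzyme not well above background on every array, entered the test only through the DMSO arrays. It read -5.56 and -4.59 in GW3965 cells, against -4.80 and -4.35 in DMSO cells. Only 1 of the 2 GW3965 arrays was well above background, and the value of GW3965 replicate b lay between the DMSO values. The difference was -0.50 ± 0.39 (SE; interval -1.52 to 0.51), at processed signals of 10.8 and 27.9 in GW3965 cells and 19.6 and 29.7 in DMSO cells. With normexp background correction the difference was -0.10, so its size depends on how background is handled.

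**Figure D3:**
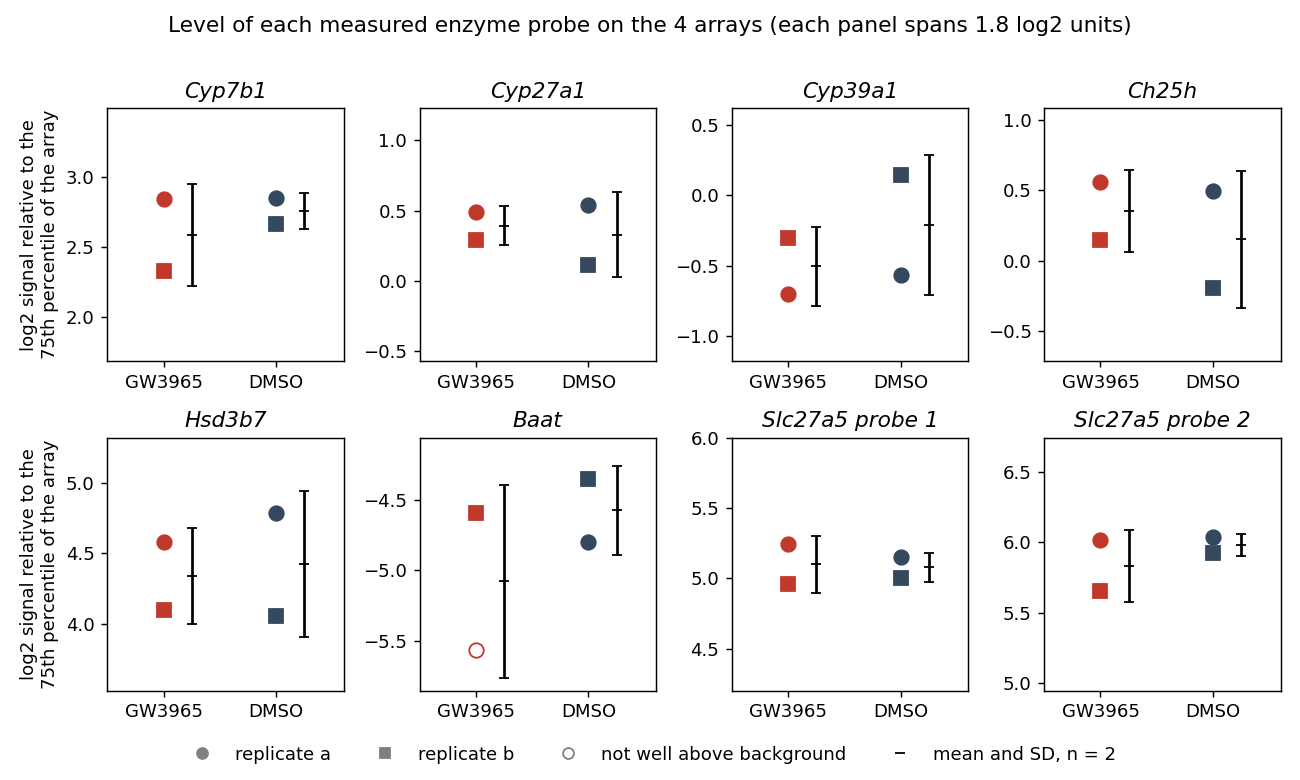
Log2 signal of the 8 tested enzyme probes on each array, relative to that array's 75th percentile, GW3965 arrays left of DMSO arrays. Bars give the mean and SD of each group (n = 2). The open point is Baat on GW3965 replicate a, which was not well above background. GW3965 and DMSO points overlap in every panel, as for Hsd3b7, where GW3965 arrays at 4.58 and 4.10 lie between DMSO arrays at 4.79 and 4.06.

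**Figure D4:**
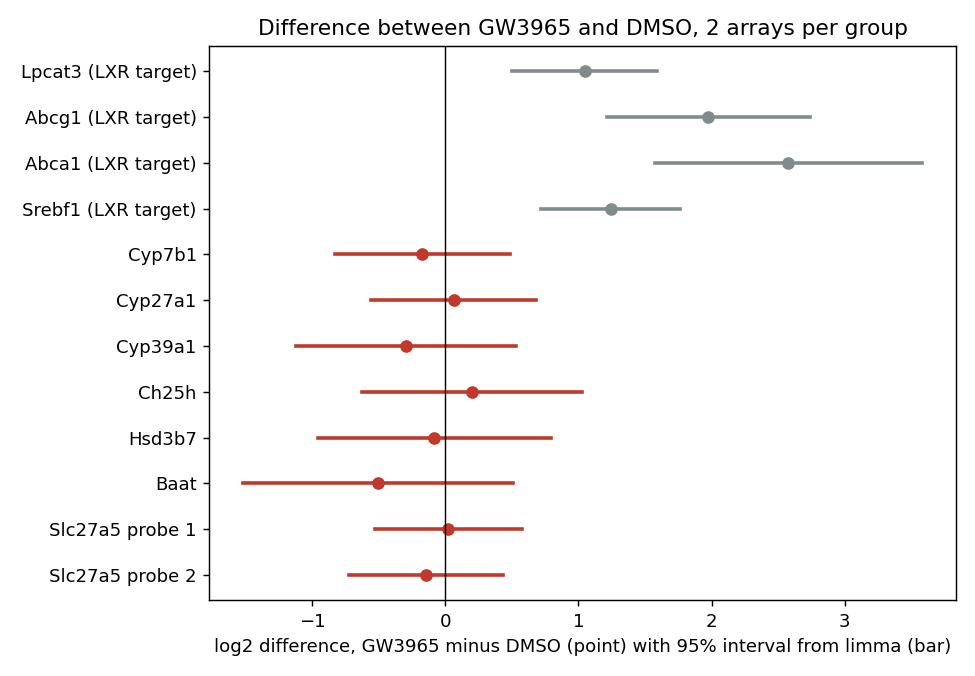
Log2 difference of GW3965 minus DMSO, with 95% intervals from limma, for the 4 LXR targets of the treatment check and the 8 tested enzyme probes. Every enzyme interval covers 0, and the widest of them is that of Baat, -1.52 to 0.51. Baat cleared background on a single GW3965 array. The intervals of the 4 targets lie above 0, the lowest being that of Lpcat3, 0.50 to 1.59, but none of them passed after adjustment.

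The rest of the pathway was read from lists of 43 further genes, of which 40 had a tested probe. Of their 57 tested probes, 0 passed the test, 17 had positive and 40 negative differences, and the median was -0.04, against 17830 positive and 17648 negative over all tested probes. For 1 of the 57 the groups did not overlap and GW3965 was higher, and for 2 it was lower, against the array-wide 10.1% and 6.54%. The side-chain and conjugation list had 12 tested probes, of which 11 had negative differences, with a median of -0.13. Amacr, the racemase that readies the side chain for shortening, read 1.69 and 1.85 in GW3965 cells, against 1.87 and 1.92 in DMSO cells. The peroxisomal enzyme Hsd17b4 read 4.35 and 4.31 in GW3965 cells, against 4.43 and 4.50 in DMSO cells. These were the 2 probes below DMSO on both GW3965 arrays, by -0.13 ± 0.19 and -0.14 ± 0.19 (SE), less than their standard errors.

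Electron supply and cholesterol delivery, with 10 tested probes, had a median of -0.02, with 3 positive and 7 negative. The transport list, with 13 tested probes, had a median of -0.03. Its 1 probe above DMSO on both GW3965 arrays was Abcc2, an exporter of organic anions into bile, at 4.39 and 4.52 in GW3965 cells and 4.06 and 4.23 in DMSO cells, a difference of 0.31 ± 0.20 (SE). The other transport probes overlapped between groups.

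Among the regulators, 22 probes of 13 genes were tested, 8 with positive and 14 with negative differences and a median of -0.05. Nr1h3, which encodes LXRα, read 3.69 and 2.67 in GW3965 cells, against 3.60 and 2.76 in DMSO cells, on 1 of its 2 probes. The difference was 0.00 ± 0.46 (SE), with replicate a well above replicate b in each group. Nr0b2, the small heterodimer partner that represses Cyp7a1, read -5.08 and -3.78 in GW3965 cells and -4.55 and -4.51 in DMSO cells. Nr1h4, the bile acid receptor FXR, read -0.02 and -0.43 in GW3965 cells and 0.38 and -0.22 in DMSO cells. Their differences were 0.10 ± 0.45 for Nr0b2 and -0.31 ± 0.30 for Nr1h4 (SE), and the groups overlapped for each. Hnf4a, a nuclear receptor of hepatocyte identity, read 4.03 and 2.35 in GW3965 cells, against 4.08 and 2.79 in DMSO cells. For Nr5a2, a nuclear receptor that activates Cyp7a1 and Cyp8b1, the 2 probes gave -0.27 ± 0.42 and -0.21 ± 0.21, and for Fgfr4, the hepatocyte receptor of the gut hormone that represses Cyp7a1, they gave -0.42 ± 0.98 and 0.12 ± 0.48 (SE). No regulator probe had groups free of overlap.

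Replicate b differed from replicate a in both groups. The median size of the gap over the 8 enzyme probes was 0.41 in GW3965 cells and 0.44 in DMSO cells, against a median size of 0.16 for their GW3965 minus DMSO differences. Over all tested probes the gaps had median sizes of 0.30 in GW3965 cells and 0.28 in DMSO cells. In both groups 6 of the 8 enzyme probes were lower on replicate b than on replicate a, and Cyp39a1 and Baat were higher. Hsd3b7 differed by -0.48 between replicates in GW3965 cells and by -0.73 in DMSO cells, and Ch25h by -0.42 and -0.69 in the same groups. Over all tested probes, 30.9% were lower and 43.4% higher on replicate b in both groups.

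Hepatocyte markers moved with this gap. All 21 hepatocyte marker probes were well above background on every array, and 21 of 21 were lower on replicate b in both groups, with median gaps of -0.67 in GW3965 cells and -0.79 in DMSO cells. Their summed signal, taken for each list over its probes well above background on all 4 arrays, was 4521 and 2700 multiples of the array's 75th percentile in GW3965 cells and 4201 and 3110 in DMSO cells. Macrophage and Kupffer cell markers summed to 58.7 and 35.0 in GW3965 cells and to 51.8 and 31.6 in DMSO cells, with 15 of 16 probes tested, Adgre1 well above background on all 4 arrays and Timd4 on none. Cd68 made up most of this sum, and 13 of the 15 tested probes were lower on replicate b in both groups. Endothelial markers, with 11 of 11 probes tested, ran the other way, summing to 52.9 and 70.1 in GW3965 cells and 48.1 and 68.4 in DMSO cells. Stellate cell markers, with 7 of 8 probes tested, were mixed. They summed to 83.3 and 51.9 in GW3965 cells and 78.2 and 52.4 in DMSO cells. In both groups 2 of the 7 probes, those of Dcn and Reln, were lower on replicate b and 4 were higher there. The median gaps were 0.29 in GW3965 cells and 0.41 in DMSO cells. Cholangiocyte markers, with 5 of 6 probes tested, summed to 57.4 and 63.9 in GW3965 cells and 62.6 and 76.1 in DMSO cells. Most of that sum was Spp1, at 5.75 and 5.77 in GW3965 cells and 5.88 and 6.09 in DMSO cells. Krt19 read 0.55 and 2.90 in GW3965 cells and -0.12 and 2.60 in DMSO cells. In both groups 3 of the 5 tested cholangiocyte probes were higher on replicate b and 1 was lower. The part of these markers in the enzyme values was not tested. Between treatments the median difference was 0.03 for hepatocyte markers, -0.08 for macrophage markers, 0.11 for endothelial markers (10 of 11 positive), 0.13 for stellate cell markers and -0.22 for cholangiocyte markers, and 0 probes of these lists passed the test.

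**Figure D5:**
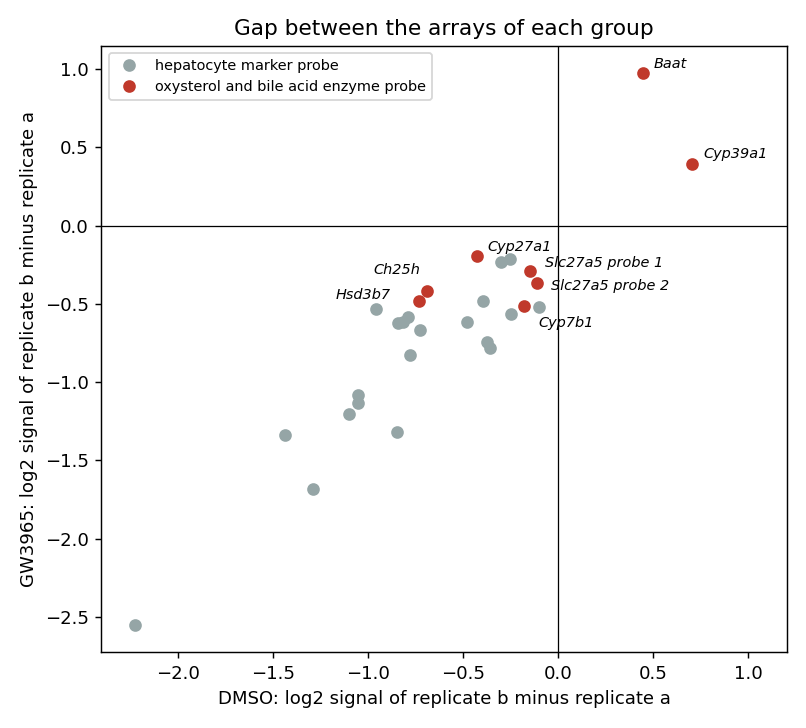
Gap between the arrays of a group, replicate b minus replicate a in log2 units, in GW3965 cells (vertical axis) and in DMSO cells (horizontal axis), for the 8 enzyme probes and 21 hepatocyte marker probes. All hepatocyte markers and 6 enzyme probes lie in the lower left, and Cyp39a1 and Baat lie in the upper right.

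Promoter windows, from 250 bases before to 50 after the start, were listed by RefSeq (GRCm38.p6) for 5 of the 10 enzymes: Cyp8b1, Cyp27a1, Ch25h, Hsd3b7 and Akr1d1. They were searched on both strands, with up to 3 mismatches over the fixed letters, for 2 arrangements of the nuclear receptor site: a DR4 (AGGTCA, any 4 bases, AGGTCA), the form LXR binds, and an IR1 (AGGTCA, any 1 base, TGACCT), the form FXR binds. A DR4 was held by 21.9% and an IR1 by 11.4% of all 32841 windows. Of the 5 enzyme windows, that of Cyp8b1 held both, and the others held neither. The Cyp8b1 matches are shown because no other enzyme window held either arrangement. They are written in the direction of the gene, which lies on the minus strand, with the element in capitals and 10 flanking bases on each side, from chr9:121916458-121916493 and chr9:121916341-121916373.
DR4: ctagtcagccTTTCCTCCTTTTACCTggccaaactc
IR1: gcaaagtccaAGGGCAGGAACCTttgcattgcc
The DR4 reads on the strand opposite to the gene. Each match carries 3 mismatches, and the Cyp8b1 probe itself was not measured, so the arrays give no value to set beside them.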

How the data were processed

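RNA of 4 primary mouse hepatocyte samples was labelled with Cy3 and hybridised to 1 slide of Agilent arrays. Per the file headers, the deposited intensity values are Feature Extraction processed signals, background-subtracted and not scaled between arrays; the headers give version 10.7.3.1, and the submitters' processing notes give 11.5.1.11 and build mm9. The deposited table of intensity values was identical to the processed signal. Control and outlier spots were dropped, spots of a probe averaged, and log2 of the signal taken minus each array's 75th percentile. The 35478 probes that the software called well above background on each array of one group or the other were tested with limma (3.58.1, R 4.3.3), GW3965 minus DMSO, with Benjamini-Hochberg adjustment. The slide and the scan were shared by all arrays, so neither was a batch. On that slide the a arrays lay at positions 1 and 2 and the b arrays at 3 and 4, so replicate letter and position cannot be told apart. The genes, lists and tests were chosen with earlier results of these data known. Further genes were named as treatment targets, as fixed regulators, as pathway genes whose groups did not overlap, or, from the marker lists, where a result turns on them. Alternatives changed background correction, scaling, filter, probe averaging, the replicate block and the samples used.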

Additional observations from a re-analysis of the deposited data

How the results depend on the processing

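The count of enzyme probes passing the adjusted threshold was 0 under all 16 settings tried, and so was that of the wider pathway probes. Over all probes the count was 0 in the limma fit reported and 16 with the replicate block, and 0 to 1 when 1 array was left out, the 1 being without DMSO replicate b. At an unadjusted p under 0.05 it ran from 77 (normexp background) to 1956 (replicate block), against 365, and for the enzymes it was 0, except 1 (Baat) with the replicate block and without GW3965 replicate b. The letters are not stated to pair samples, and the gaps between a and b correlated between the groups at r = 0.688 across 35478 probes, which are not independent. Under the replicate block the enzymes' adjusted p (limma) ran from 0.862 for Baat upward. Slc27a5 probe 1 changed sign, to -0.029 with arrays centred on the median, against 0.02, and the mean of the 2 Slc27a5 probes gave -0.063. Leaving out each array in turn gave differences of -0.43 to 0.084 for Cyp7b1, -0.15 to 0.28 for Cyp27a1, -0.65 to 0.059 for Cyp39a1, -0.14 to 0.55 for Ch25h, -0.45 to 0.28 for Hsd3b7, -0.12 to 0.17 for Slc27a5 probe 1, -0.33 to 0.035 for Slc27a5 probe 2 and -0.99 to -0.02 for Baat, which was -0.10 with normexp background against -0.50. Every enzyme but Baat changed sign when some array was left out; the cause was not tested. The lone array of a group was then assumed to vary like the other group. Signal over background limits Baat, and keeps Cyp7a1, Cyp8b1 and Akr1d1 unmeasured.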

Other observations

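Of the further pathway genes, 3 had no tested probe. Sult2a1, a sulfotransferase of bile acids, and Slc51a, a subunit of a bile acid exporter, were well above background on 0 of 4 arrays. Abcg8, a subunit of the sterol exporter of the canalicular membrane and an LXR target gene, was well above background on 1 array. It read -7.53 and -7.92 in GW3965 cells and -2.18 and -7.55 in DMSO cells, in log2 units relative to each array's 75th percentile. The high value was DMSO replicate a.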
